A study of Homo sapiens with 6 samples.

Results

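PARP genes encode enzymes that transfer ADP-ribose from NAD+ to proteins, and 10 genes around this family were followed here, chosen by symbol from the 29889 genes of the count table. They were PARP9, DTX3L, PARP14, PARP10 and PARP12, which are known as interferon-inducible, PARP1 and PARP2, which act in DNA repair, and PARP4, PARP8 and PARP11. RNA-seq was performed on A549, a human lung adenocarcinoma cell line, 48 h after Lipofectamine 2000 transfection with a CELF6 plasmid (CELF6-OE, 3 libraries) or an empty plasmid (Control, 3 libraries). CELF6 is an RNA-binding protein, and the comparison asks which transcripts differ when it is over-expressed. Both groups are transiently transfected pools of the same line, and the share of cells that took up plasmid was not measured here.

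ADP-ribosylation marks proteins with single ADP-ribose units or with chains of them. PARP1 and PARP2 bind broken DNA and build chains that recruit repair proteins, and they are expressed constitutively in most cells. Type I and type III interferons, by contrast, act through transcription factors that bind the interferon-stimulated response element (ISRE), and genes with this element, among them several PARP genes with antiviral functions, are switched on. PARP9 has no or little enzymatic activity alone and works with DTX3L, a ubiquitin ligase of the deltex family.

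Control libraries held 36422617 to 37920700 counts, and CELF6-OE libraries held 33748328 to 35413404. Counts of CELF6 were 0 in every Control library, and 18646, 20789 and 11571 in replicates 1, 2 and 3 of CELF6-OE, so the groups differed in CELF6 as labelled and replicate 3 held the least. Counts of libraries from the same group differed beyond sampling noise (chi-square per degree of freedom of 7.67 to 29.3), so none was deposited under a second name. All 8 A549 markers were detected. Their summed FPKM (a level scaled for transcript length and library size) was 9592 to 10030 in Control against 7701 to 9220 in CELF6-OE. EPCAM was the lowest of them, at 0.82 to 1.77 FPKM over all libraries. Of these 8 markers, KRT8, KRT18 and KRT19 passed the test as lower in CELF6-OE. Of 10 leukocyte markers, CD3E, CD2 and NKG7 had no row and entered as 0, and with these 7 stayed under 0.1 FPKM in every library, PTPRC with at most 2 counts among them. ITGAM was called lower, and CD79A and CD14 did not pass the test. CD14, at 3.02 to 4.53 FPKM, lay above EPCAM in every library. The summed FPKM of the leukocyte list was 3.95 to 4.52 in Control against 4.11 to 5.42 in CELF6-OE. The part of these shifts in the results on PARP genes was not tested. In these bulk libraries, fewer cells that express a gene and less RNA per cell cannot be told apart.

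PARP9, DTX3L, PARP15 and PARP14 lie side by side on chromosome 3 of GRCh38. PARP9 runs on the minus strand from 122527924 to 122564577, DTX3L on the plus strand from 122564338 to 122575203, and PARP14 on the plus strand from 122680839 to 122730840, so that PARP9 and DTX3L start head to head. PARP12 lies on the minus strand of chromosome 7 (140023749 to 140062951), PARP10 on the minus strand of chromosome 8 (143977153 to 144012772), PARP1 on the minus strand of chromosome 1 (226360210 to 226408154) and PARP2 on the plus strand of chromosome 14 (20343615 to 20357904). PARP4 is found on chromosome 13, PARP8 on chromosome 5 and PARP11 on chromosome 12.

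Promoters of 8 of the 10 genes, from 250 bases before to 50 bases after the start, were taken from RefSeq (GRCh38.p14), which had no entry used here for PARP4 and PARP10. They were searched on both strands for the ISRE core, GAAA and GAAA separated by any 2 bases, and for the core of the gamma-activated sequence (GAS), TTC and GAA separated by any 3 bases, which reads the same on both strands. The ISRE core was found in 1255 of all 35116 promoters (3.57%) and the GAS core in 2689 (7.66%). PARP9, DTX3L, PARP14 and PARP12 each held the ISRE core within 41 bases of a start, whereas PARP1, PARP2, PARP8 and PARP11 held none in this window. The ISRE matches of PARP9 and DTX3L are the same 10 bases, at chr3:122564332-122564341, read from opposite strands. They lie from position -41 to -32 of the second of the 2 starts listed for PARP9 and from -6 to 4 of DTX3L, where 1 is the first transcribed base. The GAS core was found in PARP14 and PARP2. A match describes letters only and is not evidence that a factor binds there.

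The stretches that hold the matches are shown 5′ to 3′ because these genes turned out lower in CELF6-OE. ISRE and GAS cores are in capitals. For DTX3L, the 30 bases at chr3:122564322-122564351 of the plus strand are given, which also hold the PARP9 match on the other strand. For PARP14 the 150 bases before the start are at chr3:122680689-122680838 on the plus strand, with GAS from -40 to -32 and ISRE from -29 to -20. For PARP12 the 150 bases before the start are at chr7:140062952-140063101 on the minus strand, and the reverse ISRE core ends at the last base before the start.
DTX3L: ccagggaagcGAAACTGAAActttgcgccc
PARP14: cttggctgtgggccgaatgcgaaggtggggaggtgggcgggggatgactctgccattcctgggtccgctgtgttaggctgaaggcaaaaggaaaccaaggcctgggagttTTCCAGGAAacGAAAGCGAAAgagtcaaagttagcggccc
PARP12: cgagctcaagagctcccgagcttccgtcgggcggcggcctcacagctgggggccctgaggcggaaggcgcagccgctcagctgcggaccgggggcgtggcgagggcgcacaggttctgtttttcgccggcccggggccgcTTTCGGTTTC

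All 5 interferon-inducible genes were lower in CELF6-OE, by 1.36-fold for PARP14 to 2.89-fold for PARP10, whereas PARP1 and PARP2 did not pass the test. All 10 genes passed the filter on low counts, with at least 15 counts in every library. At an adjusted p under 0.05 (quasi-likelihood test in edgeR, adjusted by Benjamini-Hochberg over 15847 genes), 6 of the 10 genes were lower, against 11.5% of all genes tested. None was higher, against 6.47% of all genes tested, and 1 gene, PARP1, was higher at an unadjusted p under 0.05, while DESeq2 and limma-voom found 0 higher. With a fold change of at least 1.5 added, 4 genes were called, namely PARP10, PARP8, PARP12 and PARP9, against 5.82% of all genes. The same 4 genes met a rule of an unadjusted p below 0.01 together with that fold change, against 5.91% of all genes. Their number was 2 without CELF6-OE replicate 1, and 1 at a fold change of at least 2. PARP9 was under the 1.5-fold limit without CELF6-OE replicate 1 (log2 fold change -0.57) and without replicate 2 (-0.56). The median log2 fold change was -0.48 over the 10 genes, -0.63 over the 5 interferon-inducible genes and 0.012 over all genes tested.

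**Figure D1:**
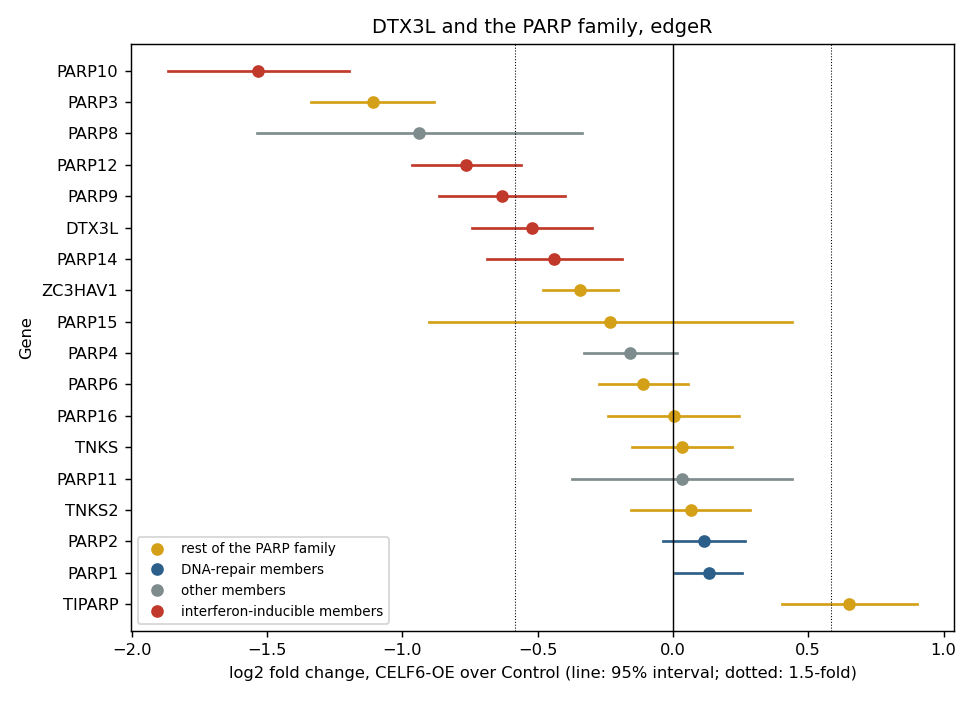
Log2 fold change of CELF6-OE over Control for DTX3L and the 17 PARP genes, with 95% intervals as lines and 1.5-fold as dotted lines. The 5 interferon-inducible genes lie between -1.53 and -0.44, PARP1 and PARP2 at 0.13 and 0.11, and TIPARP is highest at 0.65.

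PARP10 adds single ADP-ribose units to proteins. Its FPKM was 8.56, 8.37 and 13.03 in the CELF6-OE libraries, in the order of their replicate numbers as for all genes here, and 25.6, 28.9 and 30.2 in the Control libraries. The groups were far apart, and replicate 3 was the highest of CELF6-OE. The mean level was 9.99 ± 2.64 in CELF6-OE and 28.2 ± 2.34 in Control (SD, n = 3 each). PARP10 fell by 1.53 on the log2 scale (standard error 0.15, adjusted p = 6.6e-05 in edgeR's quasi-likelihood test). PARP10 shares 324 exonic bases, 5.37% of its exonic bases, with GRINA on the opposite strand, and while the libraries were made with a directional protocol, the sources used here do not say whether the counting used strand. GRINA was lower by 0.46 on the log2 scale as well (log2 fold change -0.46, adjusted p = 0.00203).

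PARP12, a zinc finger PARP with antiviral activity, had an FPKM of 21.7, 21.3 and 27.4 in CELF6-OE and 39.3, 38.5 and 39.3 in Control. It had the highest FPKM of the 10 genes in Control. Among the interferon-inducible genes it had the narrowest spread there relative to its mean, 39.1 ± 0.46 (SD, n = 3), and the groups were well apart. PARP12 fell by 0.76 on the log2 scale (standard error 0.092, adjusted p = 0.00023).

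PARP9 had an FPKM of 14.4, 14.1 and 18.8 in CELF6-OE and 26.5, 23.9 and 21.5 in Control, or 65.7% of the Control mean. The groups did not overlap, and the smallest gap was between CELF6-OE replicate 3 and Control replicate 3. PARP9 fell by 0.63 on the log2 scale (standard error 0.11, adjusted p = 0.00211). DTX3L, its partner, had an FPKM of 14.7, 14.9 and 18.3 in CELF6-OE and 25.3, 22.9 and 19.2 in Control, or 71.0% of the Control mean, again with replicate 3 of each group closest. DTX3L fell by 0.52 on the log2 scale (standard error 0.10, adjusted p = 0.005), a change under 1.5-fold. Their exons share 139 bases on opposite strands, which is 1.56% of the exonic bases of PARP9 and 2.41% of those of DTX3L. PARP9 and DTX3L had nearly equal FPKM in every library. The DTX3L to PARP9 ratio of FPKM was 1.02, 1.06 and 0.972 in CELF6-OE and 0.955, 0.955 and 0.891 in Control.

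PARP14, which carries macrodomains that bind ADP-ribose next to its catalytic domain, had an FPKM of 11.5, 12.0 and 15.2 in CELF6-OE and 19.4, 17.7 and 14.3 in Control, or 75.1% of the Control mean. The groups overlapped, since CELF6-OE replicate 3 lay above Control replicate 3. PARP14 fell by 0.44 on the log2 scale (standard error 0.11, adjusted p = 0.0221), a change under 1.5-fold, and the adjusted p was above 0.05 in 4 of 12 alternatives. The adjusted p was 0.103 without CELF6-OE replicate 1, 0.103 without CELF6-OE replicate 2, 0.0944 without Control replicate 2 and 0.0543 with scaling by library size only. For the other 4 interferon-inducible genes and for PARP8, 5 of the 10 genes, the FPKM of every CELF6-OE library lay under that of every Control library, against 17.9% of all genes tested.

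**Figure D2:**
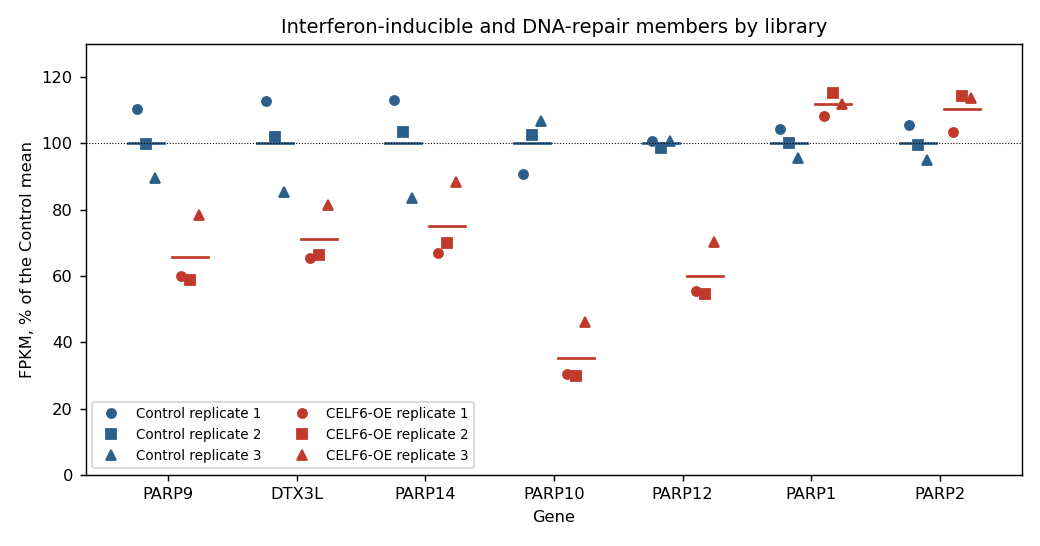
FPKM of the interferon-inducible and DNA-repair genes in each library, as a percentage of the gene's Control mean. Symbols mark the replicate, horizontal bars the group mean and the dotted line 100%. CELF6-OE replicate 3 is the highest CELF6-OE library for each interferon-inducible gene, from 46.2% for PARP10 to 88.5% for PARP14.

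CELF6-OE replicate 3 stood apart from replicates 1 and 2 for all 5 interferon-inducible genes. It was the highest CELF6-OE library for PARP4 and PARP11 too, but not for PARP1, PARP2 and PARP8. Outside the 10 genes it was the highest for PARP3, PARP6, PARP15, ZC3HAV1 and TNKS2, but not for PARP16, TIPARP and TNKS. It was also the highest for the transcription factors STAT2, IRF1 and IRF7. The share of all genes tested for which replicate 3 was the highest CELF6-OE library was not computed. This order is therefore not shown to be particular to these genes. PARP10 was at 30.3% and 29.7% of its Control mean in replicates 1 and 2 and at 46.2% in replicate 3. PARP12 was at 55.5% and 54.6% against 70.2%, and PARP9 at 60.0% and 58.8% against 78.4%. CELF6 itself had an FPKM of 270.1, 295 and 172 in these 3 libraries, lowest in replicate 3. A link between the level of CELF6 and those of the PARP genes was not tested. IFNB1, the interferon beta gene, was counted 11, 36 and 22 times in CELF6-OE against 206, 231 and 180 times in Control, so replicate 3 was not its highest CELF6-OE library. IFNB1 fell by 3.08 on the log2 scale (standard error 0.26, adjusted p = 3.16e-05 in edgeR's quasi-likelihood test). With CELF6-OE replicate 3 left out, the log2 fold change was -1.77 for PARP10, -0.90 for PARP12, -0.78 for PARP9, -0.63 for DTX3L and -0.58 for PARP14. Since replicate 3 was the highest CELF6-OE library for these genes, leaving it out enlarges each fall by construction. In the same order, the values were -1.44, -0.71, -0.57, -0.47 and -0.37 without CELF6-OE replicate 1. Without CELF6-OE replicate 2 they were -1.42, -0.70, -0.56, -0.47 and -0.39.

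In Control, PARP9, DTX3L and PARP14 were highest in replicate 1 and lowest in replicate 3, at 110.4% and 89.7% of the mean for PARP9, 112.7% and 85.4% for DTX3L and 113.2% and 83.5% for PARP14. PARP10 had the opposite order, at 90.8% in replicate 1 and 106.8% in replicate 3, and PARP12 was between 98.6% and 100.7% in all Control libraries. Control replicate 1 was also the highest and replicate 3 the lowest for PARP1, PARP2 and PARP4, at 104.2% and 95.7%, 105.6% and 94.8%, and 112.1% and 87.8% of the mean, so this was not particular to the genes on chromosome 3.

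PARP1, the main sensor of DNA breaks, had an FPKM of 33.4, 35.5 and 34.5 in CELF6-OE and 32.1, 30.8 and 29.5 in Control. The groups did not overlap, with CELF6-OE higher at a mean of 111.8% of Control. The log2 fold change was 0.13 (standard error 0.056, 95% interval 0.0081 to 0.26), and its adjusted p of 0.129 in edgeR's quasi-likelihood test did not pass. PARP2, which shares this role, had an FPKM of 17.7, 19.6 and 19.5 in CELF6-OE and 18.1, 17.04 and 16.2 in Control, and the groups overlapped. The log2 fold change of PARP2 was 0.11 (95% interval -0.037 to 0.26, adjusted p = 0.278 in edgeR's quasi-likelihood test). Both intervals end below the 1.5-fold limit. PARP2 shares 71 exonic bases, 1.75% of its exonic bases, with an unnamed GENCODE gene on the opposite strand. It shares 26 (0.64%) with another unnamed gene on that strand, which has no row in the count table.

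To compare the interferon-inducible genes with the DNA-repair genes directly, the ratio of their FPKM was formed within each library, which does not depend on the scaling of libraries. The PARP10 to PARP1 ratio was 0.256, 0.236 and 0.378 in CELF6-OE and 0.799, 0.938 and 1.02 in Control. In FPKM, PARP10 was thus close to PARP1 in the Control libraries and far below it in the CELF6-OE libraries. The PARP9 to PARP1 ratio was 0.431, 0.398 and 0.545 in CELF6-OE and 0.825, 0.777 and 0.73 in Control. The PARP14 to PARP1 ratio, which changed least among the ratios to PARP1, was 0.344, 0.338 and 0.44 in CELF6-OE and 0.605, 0.575 and 0.486 in Control. For PARP14 the groups overlapped in FPKM, and in its ratio to PARP1 they did not.

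All 10 ratios of an interferon-inducible gene to PARP1 or PARP2 were lower in CELF6-OE without overlap, against 33% of all genes tested for the ratio to PARP1 and 27.6% for the ratio to PARP2. The 10 ratios share 5 numerators and 2 denominators, and PARP1 itself lay higher in CELF6-OE without overlap. The differences of the mean log2 ratio were -0.77 for PARP9, -0.65 for DTX3L, -0.57 for PARP14, -1.69 for PARP10 and -0.91 for PARP12 against PARP1. Against PARP2 they were -0.76, -0.63, -0.55, -1.67 and -0.89 in the same order of genes. The SD of the log2 ratio among Control libraries was 0.063 to 0.20, and among CELF6-OE libraries 0.15 to 0.36. Each ratio had p = 0.1 in a two-sided exact permutation test over libraries, the smallest that 3 libraries against 3 allow, so no ratio could pass a threshold of 0.05, and adjustment over the 10 pairs leaves 0.1.

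**Figure D3:**
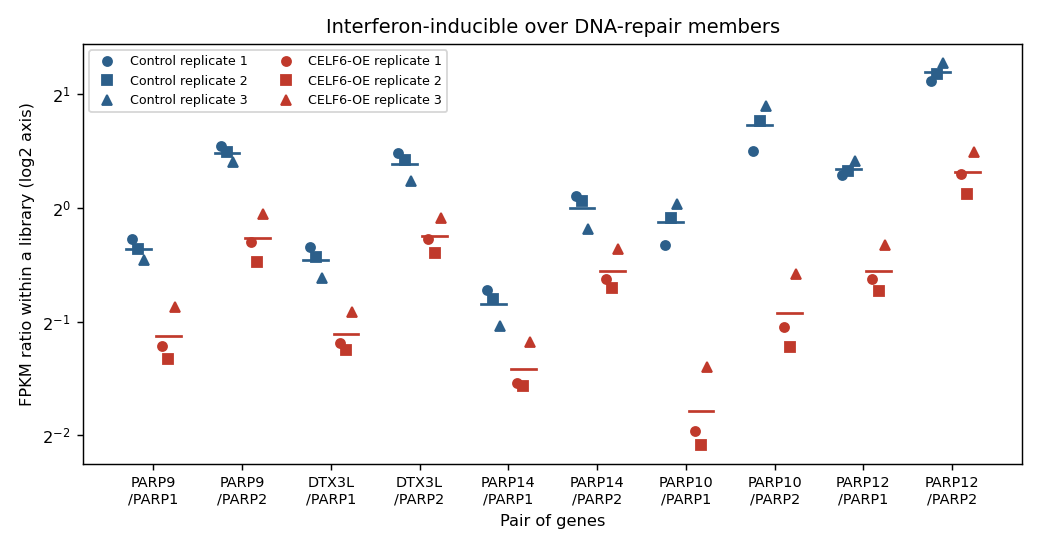
Ratio of the FPKM of each interferon-inducible gene to PARP1 or PARP2 within each library, on a log2 axis. Symbols mark the replicate and bars the mean of the 3 ratios. The CELF6-OE libraries lie below the Control libraries for all 10 pairs, and the distance is largest for PARP10.

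Ratios among the interferon-inducible genes were chosen after their fold changes had been seen and describe these libraries only. The PARP10 to PARP9 ratio was 0.595, 0.594 and 0.694 in CELF6-OE and 0.968, 1.21 and 1.40 in Control, without overlap. Its mean log2 ratio differed by -0.91. The PARP14 to PARP9 ratio was higher in CELF6-OE, at 0.799, 0.851 and 0.807 against 0.733, 0.74 and 0.666, a difference of 0.20 in the mean log2 ratio. The DTX3L to PARP9 ratio differed by 0.12. These 3 ratios had p = 0.1 in the two-sided exact permutation test, and the PARP12 to PARP9 ratio, with a difference of -0.13 and overlapping groups, had p = 0.3 in the same exact test.

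PARP4, a component of cytoplasmic vault particles, had an FPKM of 9.12, 9.70 and 9.90 in CELF6-OE and 11.7, 10.5 and 9.19 in Control, with overlap. Its log2 fold change of -0.16 (95% interval -0.33 to 0.014) had an adjusted p of 0.186 in edgeR's quasi-likelihood test, and without Control replicate 3 the adjusted p was 0.0274 at a log2 fold change of -0.23. PARP8 was barely expressed, with 44, 50 and 45 counts in Control against 20, 34 and 15 in CELF6-OE. PARP8 fell by 0.94 on the log2 scale (standard error 0.27, adjusted p = 0.0365), and the call was lost in 5 of 12 alternatives, with an adjusted p of 0.0545 in DESeq2 and 0.0511 with scaling by library size only. It was lost as well without CELF6-OE replicate 1 (0.123), without CELF6-OE replicate 3 (0.109) and without Control replicate 2 (0.125). PARP11 was low in each library, with 48, 54 and 46 counts in Control against 44, 48 and 52 in CELF6-OE. Its log2 fold change of 0.035 had a wide 95% interval of -0.37 to 0.44, so a rise or fall within this range is not excluded.

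FPKM is scaled for transcript length, but the length used for each gene is not given in the sources used here. The order of genes below depends on these lengths. In Control the order by mean FPKM was PARP12 (39.1), PARP1 (30.8), PARP10 (28.2), PARP9 (24.0), DTX3L (22.4), PARP14 (17.2), PARP2 (17.1), PARP4 (10.5), PARP11 (0.27) and PARP8 (0.14). Neighbours from PARP1 down to PARP2 overlapped in their libraries, and the others were apart. In CELF6-OE the order was PARP1 (34.4), PARP12 (23.5), PARP2 (18.9), DTX3L (15.9), PARP9 (15.8), PARP14 (12.9), PARP10 (9.99), PARP4 (9.57), PARP11 (0.29) and PARP8 (0.077). PARP10 moved from rank 3 to rank 7 and PARP2 from rank 7 to rank 3. In CELF6-OE, neighbours from PARP2 down to PARP4 overlapped.

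**Figure D4:**
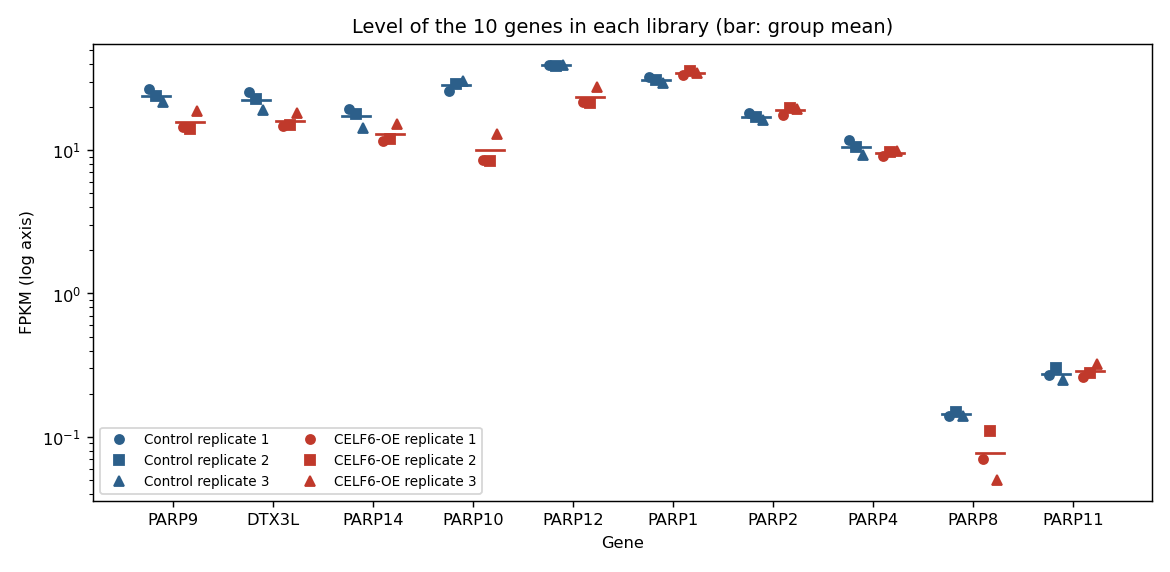
FPKM of the 10 genes in each library on a log axis. Symbols mark the replicate and bars the group mean. PARP8 and PARP11 stay under 0.4 FPKM, and the other 8 genes lie between 8.37 and 39.3 FPKM.

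The rest of the PARP family was examined as a list of 8 genes, of which 2 were lower, 1 was higher and 5 did not pass the test. Over all genes tested, 11.5% were lower and 6.47% higher. PARP3, which acts with PARP1 and PARP2 in the response to DNA breaks, had an FPKM of 4.05, 4.41 and 5.32 in CELF6-OE and 9.60, 9.90 and 9.59 in Control. It was the second most reduced PARP gene after PARP10, with a log2 fold change of -1.11 (standard error 0.10 and adjusted p = 4.7e-05). Promoters were listed for 7 of the 8 genes of this list, PARP3 among them, and 0 of the 7 held the ISRE core. The GAS core was found in PARP15 and ZC3HAV1. ZC3HAV1, the antiviral zinc finger protein also known as a PARP without catalytic activity, fell by 0.34 on the log2 scale (standard error 0.063, adjusted p = 0.00388), under 1.5-fold. TIPARP, which is induced through the aryl hydrocarbon receptor, had an FPKM of 6.24, 7.07 and 5.43 in CELF6-OE and 4.61, 3.68 and 3.42 in Control. TIPARP rose by 0.65 on the log2 scale (standard error 0.11, adjusted p = 0.00269), without overlap between the groups.

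PARP15 lies between DTX3L and PARP14 but had at most 28 counts in any library, with a log2 fold change of -0.23 (95% interval -0.90 to 0.44). The log2 fold changes of PARP6, PARP16, TNKS and TNKS2 were -0.11, 0.0022, 0.033 and 0.066. TNKS and TNKS2 encode the tankyrases, which build ADP-ribose chains on telomere and signalling proteins. Of all 17 PARP genes, 7 were lower, 1 was higher and 9 did not pass the test, and their median log2 fold change was -0.16.

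The cluster from PARP9 to PARP14 spans 203 kb. Within 250 kb on either side, 9 flanking genes passed the filter on low counts, and their median log2 fold change was 0.034. Of these, FAM162A fell by 0.25 on the log2 scale (adjusted p = 0.0337 in edgeR's quasi-likelihood test) and the lncRNA RP11-67L2.2 rose by 0.73 (adjusted p = 0.017). The nearest neighbours did not pass the test, with a log2 fold change of 0.14 for KPNA1 beside PARP9 (95% interval 0.0015 to 0.28) and 0.011 for HSPBAP1 beside PARP14 (95% interval -0.27 to 0.29). The log2 fold change of CSTA was -0.52 (adjusted p = 0.0564), that of CCDC58 0.23, that of WDR5B -0.25, that of RP11-299J3.8 0.37 and that of DIRC2 0.034. CSTA was thus of the size of DTX3L without passing the test, while KPNA1 and HSPBAP1, on either side of the cluster, were not lower.

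**Figure D5:**
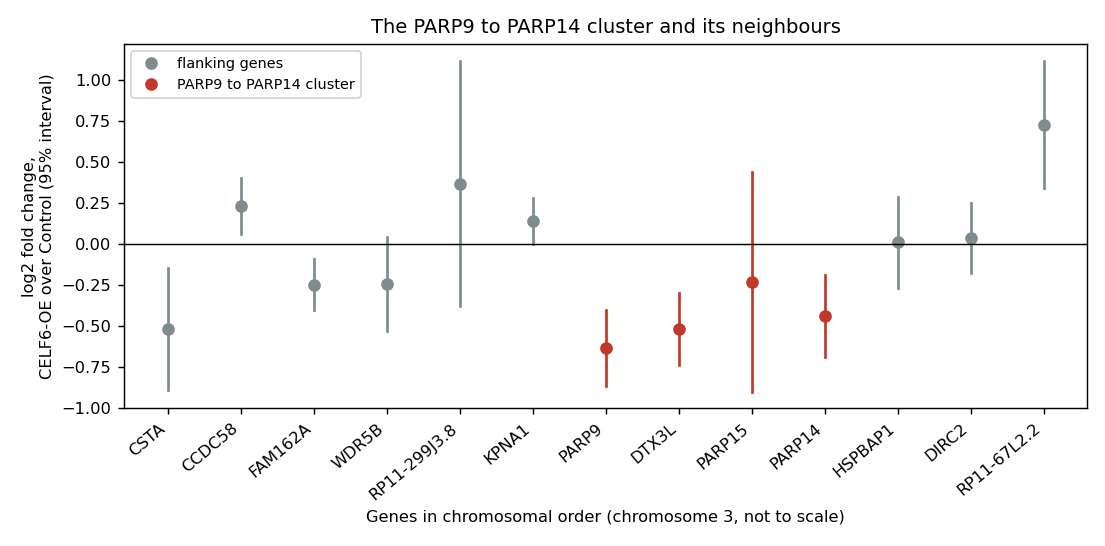
Log2 fold change of CELF6-OE over Control for the PARP9 to PARP14 cluster and its flanking genes in chromosomal order, with 95% intervals as lines. PARP9, DTX3L and PARP14 lie at -0.63, -0.52 and -0.44, KPNA1 and HSPBAP1 next to them at 0.14 and 0.011.

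Genes that act with the PARP enzymes were looked up in lists. Of 8 genes for the removal of ADP-ribose and for the PARP cofactor HPF1 (listed as C4orf27), 0 passed edgeR's quasi-likelihood test, 1 had an unadjusted p under 0.05, and 1 passed in DESeq2 and 0 in limma-voom. The smallest p was that of ADPRHL2, a hydrolase that removes ADP-ribose from serine, with a log2 fold change of -0.27 (adjusted p = 0.0504 in edgeR's quasi-likelihood test). The median of this list was -0.049. Of 11 genes of single-strand break and base excision repair, which PARP1 serves, UNG alone passed. UNG, which removes uracil from DNA, rose by 0.33 on the log2 scale (adjusted p = 0.00398), and the median of the list was 0.033. XRCC1, the scaffold recruited by ADP-ribose chains, had a log2 fold change of -0.0079.

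Of the 4 other deltex ligases, 0 passed edgeR's quasi-likelihood test, and 0 had an unadjusted p under 0.05 or passed in DESeq2 or limma-voom. DTX3 had the smallest p, with a log2 fold change of -0.25 (adjusted p = 0.163). Of 7 genes of NAD synthesis, which supplies the substrate, only NAMPT passed the test. With NAMPT, 3 of the 7 were lower at an unadjusted p under 0.05 in edgeR's quasi-likelihood test, against 2848 of all 15847 genes tested. The median log2 fold change of this list was -0.18. NAMPT, the main salvage enzyme, had an FPKM of 34.0, 33.4 and 36.7 in CELF6-OE and 56.7, 44.3 and 35.7 in Control, with overlap at replicate 3, and fell by 0.42 on the log2 scale (adjusted p = 0.0331). The 3 interferon transcription factors tested were all called lower, against 5.82% of all genes tested. Their log2 fold changes were -1.01 for STAT2, -1.09 for IRF1 and -0.88 for IRF7. IRF9, the fourth of this list, had at most 2 counts in any library and was not tested. In GENCODE it overlaps a readthrough gene on the same strand, and whether its reads were counted elsewhere was not tested, so the low count is not a measure of its level.

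The genes most like PARP9 and PARP14 across the 6 libraries were found by the root mean square difference of their log2 CPM, each centred on its own mean. For PARP14 these were MASTL (0.042), PNPT1 (0.044) and DTX3L (0.049), where PNPT1 is a mitochondrial exoribonuclease and MASTL a mitotic kinase. MASTL had an FPKM of 9.55, 10.4 and 12.7 in CELF6-OE and 15.6, 14.3 and 12.3 in Control, with overlap at replicate 3. PARP14 had the same overlap, and since MASTL was picked for its near profile, this likeness adds nothing to it. For PARP9 they included SLCO2B1 (0.056), an organic anion transporter, and BMP6 (0.057), a growth factor of the TGF-beta family. DTX3L was at 0.077 from PARP9 and ranked 20 among the genes nearest to it. PARP12 was at 0.11, PARP14 at 0.115 and PARP10 at 0.49, the farthest of the interferon-inducible genes. Profiles were centred but not scaled, so a difference in the size of the fall adds to this distance.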

How the data were processed

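Polyadenylated RNA was sequenced from directional libraries, and the authors removed low-quality bases (FASTX-Toolkit), mapped reads on GRCh38 (TopHat2) and kept those with 1 location. The counting tool, its strand setting and annotation release are not given in the sources used here. The authors deposited read counts per gene without normalization, and FPKM values rounded to decimals. Groups and replicate numbers came from the sample titles. The methods call the 3 libraries of a group biological replicates.

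Counts of the 15847 genes kept by filterByExpr (minimum count 10) were scaled with TMM and tested in edgeR 4.0.16 (R 4.3.3) with the quasi-likelihood test and Benjamini-Hochberg adjustment. Called genes passed an adjusted p of 0.05 and differed at least 1.5-fold. A gene is said to rise or fall at an adjusted p under 0.05 at any fold change. Standard errors and 95% intervals come from the same test. FPKM served for levels and for ratios within a library. Profiles used log2 CPM with a prior count of 2. Total counts were 33748328 to 37920700, and the prior degrees of freedom were 7.15. The fit was tested on simulated data. DESeq2 1.42.0 and limma-voom (limma 3.58.1) were alternatives.

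Gene coordinates are from GENCODE v44, where 29032 of 29889 gene IDs were found by ID without version, and promoters from RefSeq. The named genes were all 10 genes, CELF6 and IFNB1, the rest of the PARP family, tested flanking genes within 250 kb, the called genes of each list or else the one with the smallest p, and the 3 nearest profiles of PARP9 and PARP14, of which 1 is not reported here. Other genes are named where a sentence turns on them, after their values were seen. Genes and lists (rest of the PARP family, ADP-ribose removal, base excision repair, deltex ligases, NAD synthesis, interferon transcription factors, A549 and leukocyte markers) were chosen with earlier results of these data known.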

Additional observations from a re-analysis of the deposited data

How the results depend on the processing

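PARP9, DTX3L, PARP10 and PARP12 kept their direction and an adjusted p under 0.05 in all 12 alternatives, with an adjusted p of at most 0.0344, although PARP9 was under 1.5-fold without CELF6-OE replicate 1 or 2, and PARP1 and PARP2 passed in none of them. PARP11 turned to -0.050 without CELF6-OE replicate 3 and to -0.0045 without Control replicate 3, reached 0.0999 without Control replicate 2, and passed in no alternative. The 10 ratios within libraries kept their direction in the 70 alternative values that can differ, from -1.89 to -0.48, and log2 counts and the replicate block give the main value by construction, up to rounding. The number of the 10 genes called lower was 4, and it was 2 to 5 with a library left out by either rule and 1 at a fold change of at least 2, which asks for a larger change by construction. Over all genes, 922 were called lower and 214 higher by adjusted p, and 936 and 216 by p under 0.01. With a library left out these counts were 672 to 989 lower and 107 to 371 higher by adjusted p, and 791 to 1041 lower and 155 to 348 higher by p. The highest counts of higher genes came without Control replicate 1 (371 and 348), and the lowest by adjusted p without CELF6-OE replicate 2 (107) and without Control replicate 2 (115). The cause was not tested. At a fold change of at least 2 they were 475 and 64 by adjusted p and 480 and 65 by p. Same-numbered libraries did not deviate together (correlations of -0.072 to -0.011, against -0.042 to 0.058 for differently numbered ones). No pairing by replicate number was seen, and these correlations cannot exclude that samples were handled in pairs. With the replicate block, 921 genes were called lower and 201 higher by adjusted p, and the block changed none of the calls on the 10 genes. Depth limits PARP8, PARP11 and PARP15, which had 54 counts or fewer in every library.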
